A study of Mus musculus with 8 samples.

Results

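The antiviral interferon effector genes encode proteins that a cell makes after type I interferon has bound its receptor, many of them antiviral. A list of 54 such genes was taken by symbol, and 53 of them had a row among the 31053 genes counted. Ifi30 was not analysed here. They were followed in nuclei of the cerebral cortex from 4 Wt (Ifnar1+/+) and 4 Ifnar1-/- mice on the C57BL/6J background, 2 females and 2 males of each genotype (F1, F2, M1 and M2), 6 weeks old and given no treatment. Ifnar1-/- mice lack the receptor subunit IFNAR1 in every cell from conception, so a difference in one class of cells can come from that class or from any other. Single-nucleus RNA-seq counts each captured RNA molecule once by a unique molecular identifier (UMI), and unspliced RNA was counted too. The question was which effector genes, in which class of cells, had lower RNA without the receptor.

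Type I interferons signal through IFNAR1 and IFNAR2, which are bound by the kinases TYK2 and JAK1. The signal ends in a transcription factor complex that contains IRF9 and binds interferon-stimulated response elements in promoters. In tissue without infection, a low tonic interferon signal is known to keep some of these genes on, and microglia and border macrophages are known as responsive cells of the brain.

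The element is written here as 2 copies of GAAA with 2 bases between them, on either strand. It was searched for in RefSeq promoter windows of GRCm38.p6, from 250 bases before each gene's start to 50 after it. It was found in 24 of the 44 effector genes that had both a row and a window (54.5%), beside 3.99% of all 27025 genes and 3.44% of 32851 windows. 6 genes whose counts are described below show its form. Each is given 5′ to 3′ on the strand of the gene, with the match in capitals.
Isg15 (chr4:156200871-156200900, minus strand, match starting 72 bases before the start): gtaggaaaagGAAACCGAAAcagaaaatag
Oas1a (chr5:120907520-120907549, minus strand, 14 bases before): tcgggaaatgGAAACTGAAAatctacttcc
Cxcl10 (chr5:92349083-92349112, minus strand, 213 bases before): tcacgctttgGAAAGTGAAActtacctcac
Ddx60 (chr8:61928058-61928087, plus strand, 19 bases before): gagcagaagaGAAACCGAAActatccttca
Bst2 (chr8:71537577-71537606, minus strand, 124 bases before): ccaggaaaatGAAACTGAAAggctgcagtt
Slfn5 (chr11:82951937-82951966, plus strand, 155 bases before): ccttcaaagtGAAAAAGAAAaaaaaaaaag
The Slfn5 gene itself starts at chr11:82951349, so its match lies inside the gene, before a later RefSeq start. A match is a run of letters and was not tested as a binding site. Matches can overlap, and Isg15 held 3 that did.

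After filters and removal of doublets 52079 nuclei remained, from 4313 to 8928 per library. Deposited totals were 44063346 to 58423423 UMIs per library, and any pair of libraries shared 3 to 30 barcodes, at most 0.333% of the smaller library. Clusters were named from marker genes. The classes held 23703 nuclei of glutamatergic neurons, 7038 of GABAergic neurons, 1575 of striatal projection neurons, 5994 of oligodendrocytes, 454 of oligodendrocyte precursors, 218 of newly formed oligodendrocytes, 4386 of microglia, 164 of astrocytes and 96 of perivascular macrophages. Microglia had a median of 1472 UMIs per nucleus and glutamatergic neurons 8796. Ifnar1-/- F1 stood apart, with 156 microglia and 175051 UMIs in them, where the other libraries had 438 to 765 microglia. Ifnar1 RNA was still counted in Ifnar1-/- mice: in microglia it was 62.1, 42.4, 54.3 and 56.7 UMIs per 1000000 UMIs (CPM) in Wt F1, F2, M1 and M2, and 22.9, 28.6, 30.8 and 36.2 CPM in Ifnar1-/-. The groups did not overlap there, but a count per gene does not tell which exons the RNA held.

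In Wt mice most effector genes had their highest level in perivascular macrophages or microglia. 45 genes had at least 20 Wt UMIs over the named classes together. The mean level was highest in perivascular macrophages for 27 of them and in microglia for 10. Of all genes with that many Wt UMIs, 16.7% and 15.6% were led by these classes. Some leads of perivascular macrophages rest on very few UMIs there: 1 for Isg15, Oasl1 and Slfn2, and 2 for Ifit2 and Ifi27l2a. In perivascular macrophages the lowest library was above every library of the next class for 12 of the 27, beside 9.99% of all genes led by that class. In microglia this held for 5 of the 10 (Uba7, Trim21, Parp9, Lgals9 and Phf11d), beside 21.8%. Some of the 12 in perivascular macrophages also rest on few UMIs there: 3 for Slfn5, 5 for Oasl2, Ifi204 and Ifi35, and 6 for Oas2. Parp14, an ADP-ribosyltransferase, averaged 219 ± 64.4 CPM (SD, n = 3) in perivascular macrophages and 87.5 ± 14.7 (SD, n = 4) in microglia, and these ranges did not overlap. Its mean was at most 3.99 CPM in the other classes. Ly6e, a membrane protein that blocks coronavirus entry, averaged 574 ± 224 CPM (SD, n = 3) in perivascular macrophages and 470 ± 139 (SD, n = 4) in microglia, which overlapped, and 69.8 ± 21.8 (SD, n = 4) in glutamatergic neurons, below both.

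Adar and Ifit1, 2 of the 45, had their highest mean in GABAergic neurons. Of all genes 9.34% did, so this lead was no more common among the effector genes. Of all genes led by that class, 21.1% had no overlap with the next. Adar, which edits adenosine to inosine in double-stranded RNA, averaged 126 ± 8.52 CPM (SD, n = 4) there, 112 ± 7.41 (SD, n = 4) in glutamatergic neurons and 65.9 ± 5.85 (SD, n = 4) in microglia. The GABAergic and glutamatergic ranges did not overlap. Ifit1, which binds foreign 5′ ends of RNA, averaged 3.50 ± 1.10 CPM (SD, n = 4) in GABAergic neurons and 1.13 ± 0.511 (SD, n = 4) in glutamatergic neurons, also without overlap, and had 1 UMI in all Wt microglia.

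**Figure D1:**
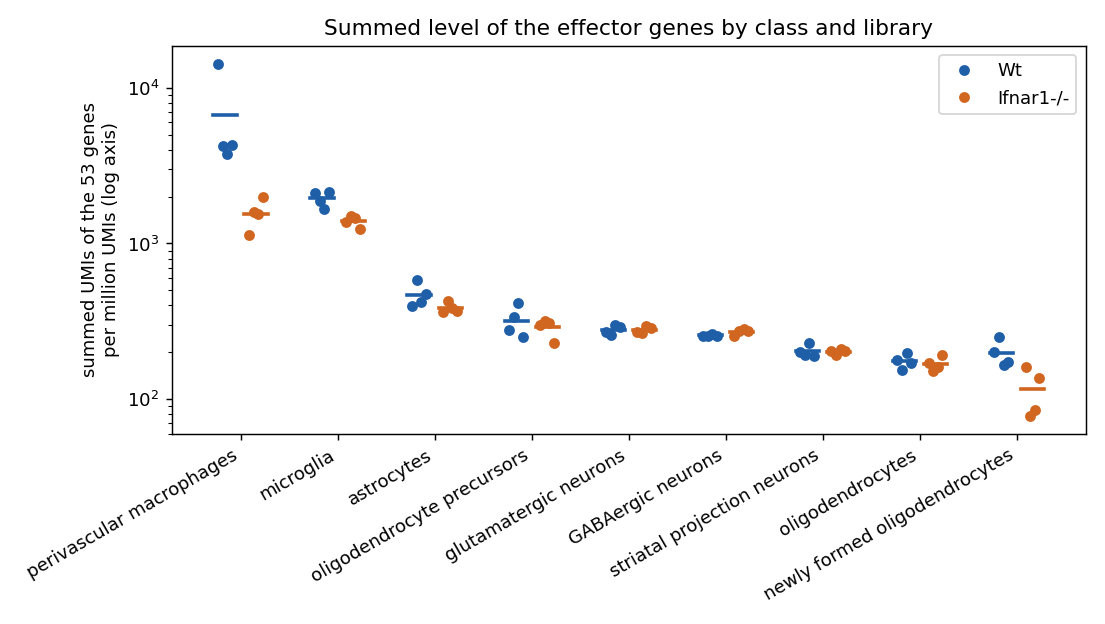
Summed UMIs of the 53 effector genes in CPM (log axis) in each class. Each point is a library, bars are means, blue is Wt and orange Ifnar1-/-. In microglia the Wt libraries sit at 1670 to 2142 and the Ifnar1-/- libraries at 1231 to 1508, while in glutamatergic and GABAergic neurons the genotypes overlap.

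The summed level of the effector genes separated the genotypes in microglia. It was 2111, 1866, 1670 and 2142 CPM in Wt F1, F2, M1 and M2, and 1371, 1508, 1456 and 1231 CPM in Ifnar1-/- F1, F2, M1 and M2. Every Wt library was above every Ifnar1-/- library, and the ratio of the means was 0.715. In glutamatergic neurons the sums were 271, 260, 298 and 290 CPM in Wt and 270, 266.5, 296 and 285 CPM in Ifnar1-/-, with a ratio of 0.999. In GABAergic neurons they were 255 to 261 CPM in Wt and 254 to 283 CPM in Ifnar1-/-, and in oligodendrocytes 153 to 197 CPM and 152 to 191 CPM. The genotypes overlapped in all 3 of these classes. Newly formed oligodendrocytes did not overlap, at 166 to 252 CPM in Wt and 77.8 to 160.5 CPM in Ifnar1-/-, but these sums rest on 74 and 58 UMIs.

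The separation of the sums depended in part on Ly6e and Adar, which were abundant in several classes. Without both, the microglial ratio of the means was 0.686 but Wt M1, at 1119 CPM, was below Ifnar1-/- F2, at 1154 CPM. Newly formed oligodendrocytes then overlapped too, with Wt M1 at 99.7 CPM and Ifnar1-/- F1 at 104 CPM. In oligodendrocytes the sums without both genes no longer overlapped, at 121 to 142 CPM in Wt and 93.7 to 119 CPM in Ifnar1-/-, a ratio of 0.857.

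In microglia, 51 of the 53 genes had a UMI, and the pooled level was lower in Ifnar1-/- for 47 and higher for 4 (Oasl1, Trim21, Cmpk2 and Mndal). Among 31 genes with at least 20 UMIs over the 8 libraries, 30 were lower and 12 had every Wt library above every Ifnar1-/- library. Over all genes with that many UMIs, 1.09% separated in this way. The 12 were Oasl2, Oas1c, Herc6, Rnf213, Parp9, Parp12, Parp14, Adar, Slfn2, Slfn5, Ifi204 and Xaf1. Of these, 9 had a promoter window and 2 of the 9 held the element, Oas1c and, before its later start, Slfn5. With edgeR's quasi-likelihood test, 19 of the 53 genes passed the filter on low counts, 18 had a negative log2 fold change and the median was -0.57, beside 50.5% negative and a median of -0.0028 over the 9560 genes tested. None of the 19 passed a Benjamini-Hochberg adjusted p of 0.05, where 0.105% of all genes did. At an unadjusted p under 0.05, 9 of the 19 were lower and none higher, beside 0.983% of all genes lower. That count was 4 without Wt F1, 4 without Ifnar1-/- M1, and 11 with the replicate label as a block, where 1.85% of all genes were lower. The filter kept out the genes with the fewest UMIs. Without it, 51 were tested, 46 were negative, 26 were lower at an unadjusted p under 0.05 (1.3% of all genes) and 1, Oasl2, passed the adjusted threshold (0.107% of all genes).

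**Figure D2:**
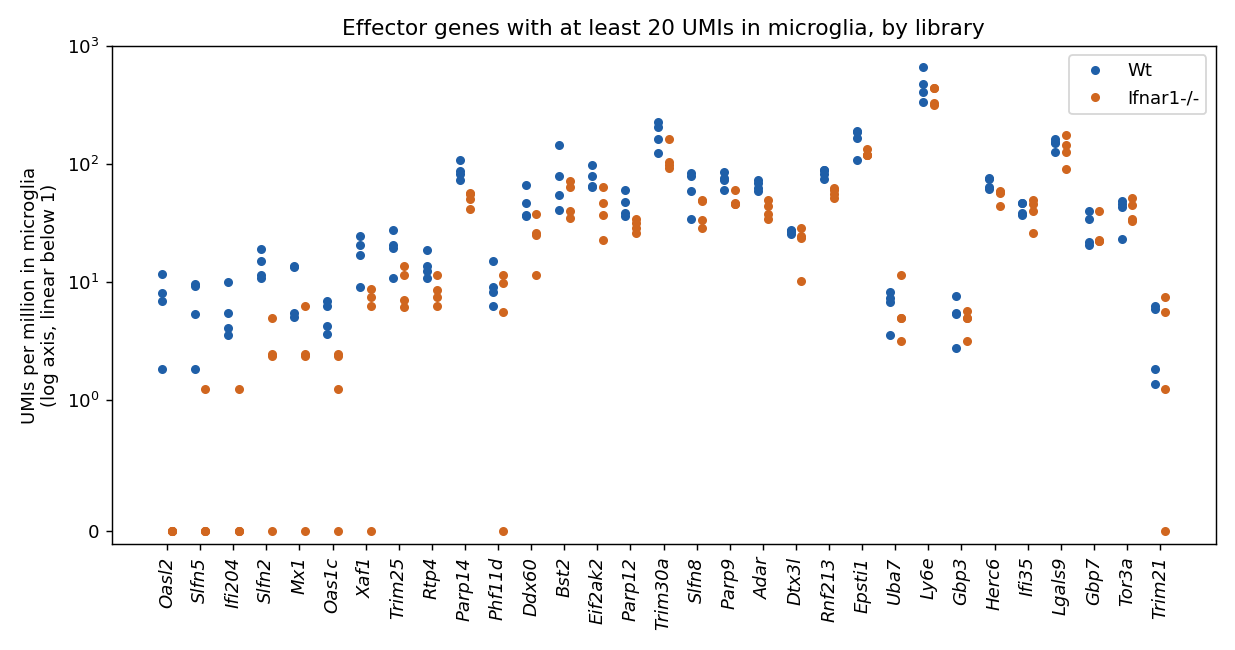
Level of each effector gene with at least 20 UMIs in microglia, in CPM (log axis, linear below 1). Each point is a library, blue Wt and orange Ifnar1-/-, and genes are ordered by the ratio of pooled levels. On the left Oasl2, Slfn5 and Ifi204 are at 0 in at least 3 Ifnar1-/- libraries, and on the right the genotypes of Tor3a and Trim21 overlap.

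Several genes had few or no UMIs in Ifnar1-/- microglia. The OAS family, whose enzymes sense double-stranded RNA and switch on RNase L, had 65 UMIs in Wt microglia but 8 in those of Ifnar1-/- mice. The ratio per UMI was 0.145 (95% exact interval 0.0600 to 0.303, counting error only). Oasl2, an OAS-like member, had 14, 5, 1 and 9 UMIs in Wt F1, F2, M1 and M2 and 0 in each Ifnar1-/- library, at least 8.21-fold lower against a floor of 3 UMIs over the group. Without the filter its adjusted p was 0.0254 with edgeR's test. Oas1a had 5, 2, 2 and 3 UMIs in Wt and 0 in each Ifnar1-/- library, at least 3.40-fold lower by the same floor. Neither gene had a UMI in any Ifnar1-/- microglia.

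The PYHIN genes, DNA sensors of the interferon response, had 28 UMIs in Wt and 3 in Ifnar1-/-. Ifi204 had 12, 3, 3 and 4 UMIs in Wt and 0, 1, 0 and 0 in Ifnar1-/-. The IFIT genes had 27 UMIs and 5, but their sums overlapped, at 5.43 CPM in Wt M1 and 5.71 CPM in Ifnar1-/- F1. Among the Schlafen genes, Slfn5 had 11, 7, 1 and 6 UMIs in Wt and 0, 0, 1 and 0 in Ifnar1-/-, while Slfn2, which holds immune cells in quiescence, had 18, 14, 6 and 13 and 0, 4, 2 and 3. In each of these 3 genes every Wt library was above every Ifnar1-/- library in CPM.

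Ifitm3, which stops viruses in endosomes, had 2, 4, 2 and 7 UMIs in Wt and 0, 1, 0 and 0 in Ifnar1-/-. Mx1 had 6, 10, 3 and 15 UMIs in Wt and 0, 5, 2 and 3 in Ifnar1-/-. Mx1 levels overlapped between the genotypes. Mx1 lies at chr16:97447035-97462907, on the chromosome of the targeted Ifnar1 (chr16:91485238-91507441). The part of sequence linked to the targeted gene in the Mx1 counts, here or over all nuclei, was not tested. Isg15, the ubiquitin-like protein of this response, had 6, 2, 1 and 3 UMIs in Wt and 1, 1, 0 and 0 in Ifnar1-/-. The single UMI in the shallow Ifnar1-/- F1 library was 5.71 CPM, so the levels overlapped. The chemokine Cxcl10 had 12 UMIs, all from Wt M2, so that gene rests on 1 library. Families with near-identical copies (Ifit3 and Ifit3b, the Oas1, Gbp and PYHIN genes, Ifitm2 and Ifitm3) can share or lose reads, and their counts are uncertain.

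Another group was lower by a smaller factor at higher levels. The 9 genes at an unadjusted p under 0.05 belong here, and the adjusted p of each was at least 0.996 with edgeR's test and the Benjamini-Hochberg method. Parp14 stood at 107, 87.6, 72.45 and 82.4 CPM in Wt F1, F2, M1 and M2, and at 57.1, 56.0, 50.5 and 41.7 CPM in Ifnar1-/-. The groups did not overlap, and its log2 fold change was -0.81 (95% interval -1.26 to -0.36). Parp9 stood at 84.8, 72.5, 59.8 and 75.3 CPM in Wt and 45.7, 59.7, 45.5 and 46.5 CPM in Ifnar1-/- (-0.57, -1.002 to -0.13). Parp12 stood at 59.6, 38.3, 36.2 and 47.9 CPM in Wt and 34.3, 28.6, 25.8 and 31.5 CPM in Ifnar1-/- (-0.65, -1.18 to -0.13). All 3 PARP genes thus separated the genotypes, Parp9 and Parp12 by small gaps.

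Adar stood at 68.8, 62.9, 72.45 and 59.4 CPM in Wt and 34.3, 37.3, 44.3 and 49.6 CPM in Ifnar1-/-, with no overlap and a log2 fold change of -0.63 (-1.04 to -0.21). Eif2ak2, the kinase PKR that halts translation on double-stranded RNA, stood at 97.4, 79.4, 63.4 and 65.6 CPM in Wt and 22.9, 63.4, 36.9 and 46.5 CPM in Ifnar1-/- (-0.76, -1.33 to -0.19). Its lowest Wt and highest Ifnar1-/- libraries met. Ddx60, a helicase that aids RNA sensing, stood at 66.3, 46.5, 36.2 and 37.2 CPM in Wt and 11.4, 37.3, 25.8 and 25.2 CPM in Ifnar1-/- (-0.80, -1.45 to -0.14), with overlap.

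Rnf213, a giant ubiquitin ligase, stood at 88.1, 88.9, 74.3 and 82.4 CPM in Wt and 51.4, 56.0, 62.8 and 59.9 CPM in Ifnar1-/-, with no overlap (-0.52, -0.89 to -0.15). Trim25, the ligase that activates RIG-I, stood at 19.3, 20.5, 10.9 and 27.5 CPM in Wt and 11.4, 13.7, 6.15 and 7.09 CPM in Ifnar1-/- (-1.15, -2.03 to -0.27). Trim30a stood at 227, 207, 123 and 162 CPM in Wt and 97.1, 162, 92.3 and 105 CPM in Ifnar1-/- (-0.64, -1.17 to -0.12). Both TRIM genes overlapped between the genotypes.

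Other abundant effectors did not separate. Ly6e stood at 405, 337, 478 and 660 CPM in Wt and 440, 316, 442 and 330 CPM in Ifnar1-/- (-0.31, -0.80 to 0.18). Bst2, the tetherin that holds budding virions on the cell, stood at 78.9, 41.0, 54.3 and 144 CPM in Wt and 39.99, 63.4, 71.4 and 34.65 CPM in Ifnar1-/- (-0.60, -1.45 to 0.25), and its highest value was that of Wt M2. Epsti1 stood at 188, 191.5, 109 and 167 CPM in Wt and 120, 134, 119 and 120 CPM in Ifnar1-/- (-0.41, -0.84 to 0.01).

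Lgals9, which encodes galectin-9, stood at 154, 164, 150 and 126 CPM in Wt and 126, 175, 145 and 91.3 CPM in Ifnar1-/- (-0.13, -0.59 to 0.32). The smallest shifts were those of Tor3a (0.03, -0.57 to 0.63), Ifi35 (-0.12, -0.68 to 0.44) and Gbp7 (-0.12, -0.82 to 0.58). These intervals still hold a change as large as that of Rnf213.

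Within females alone 19 of 22 tested effector genes were negative in microglia (median -0.58), beside 4730 of all 9117 genes tested. Within males alone 20 of 21 were negative (median -0.57), beside 5236 of all 10424. In nuclei with no UMI of the neuronal markers Slc17a7, Gad1 and Gad2 or the oligodendrocyte marker Mog, all 18 tested effector genes were negative. Over all genes in that fit, 4394 of 8712 were. Summed markers of microglia were 21690 to 38340 CPM in Wt microglia and 22780 to 37880 in Ifnar1-/-. All 9 markers of glutamatergic neurons were detected in microglia, at 367 to 496 CPM and 409 to 463 CPM. In glutamatergic neurons themselves these 9 summed to only 1320 to 1438 CPM in Wt and 1275 to 1413 CPM in Ifnar1-/-. Of 6 markers of perivascular macrophages 5 were detected in microglia, with Lyve1 at 0, at 21.7 to 28.5 CPM and 24.6 to 35.4 CPM. The part of these other cells' RNA in the result was not tested.

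Perivascular macrophages showed the lowest ratio of the named classes, on few nuclei. They are macrophages of the space around brain vessels, marked by Mrc1 and Cd163. None of the 53 genes passed the filter of the test. Wt F1 had 7 of these nuclei and Ifnar1-/- F1 had 2, so both were left out. In the remaining 3 Wt and 3 Ifnar1-/- libraries, 43 and 44 nuclei held 295 and 146 UMIs of the effector genes, a ratio per UMI of 0.422 (95% exact interval 0.343 to 0.516, counting error only). Of 38 genes with a UMI, 33 were lower and 5 higher in Ifnar1-/-. All 11 genes with at least 10 UMIs were lower, and 7 had every Wt library above every Ifnar1-/- library, beside 4.25% of all genes with that many UMIs.

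With all 8 libraries the OAS genes had 26 UMIs in Wt and 0 in Ifnar1-/- perivascular macrophages, and in the 6 libraries without both F1 they had 14 and 0. Rnf213 had 20, 8, 4 and 4 UMIs in Wt F1, F2, M1 and M2 and 1, 1, 2 and 2 in Ifnar1-/-. Mndal, a PYHIN gene with 3 UMIs in all microglia, had 11, 4, 7 and 9 and 0, 2, 2 and 7. Bst2 had 2, 3, 6 and 15 UMIs and 0, 2, 3 and 3, Ly6e 8, 8, 8 and 29 and 1, 2, 9 and 10, and Epsti1 11, 11, 5 and 13 and 0, 7, 2 and 7. Wt F1 was far above the rest in its summed level, at 14330 CPM where the other Wt libraries had 3764 to 4280 CPM and the Ifnar1-/- libraries 1137 to 1976 CPM. Summed markers of microglia ranged from 9444 to 16120 CPM in these Wt nuclei and from 2984 to 12340 CPM in Ifnar1-/-, those of oligodendrocytes from 80.0 to 515 CPM and from 404 to 2197 CPM. Their part in the result was not tested.

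In neurons the same genes were counted more deeply, and the levels of most of them overlapped between the genotypes. In glutamatergic neurons all 53 genes had a UMI, 26 being lower, 26 higher and 1 equal in Ifnar1-/-. Of 40 genes with at least 20 UMIs, 0 had every Wt library above every Ifnar1-/- library and 0 the reverse, beside 0.825% and 0.797% of all genes. Of 31 genes tested, 13 were negative, the median log2 fold change was 0.03, and 0 passed the adjusted threshold with edgeR's test (0.055% of all genes did) or with DESeq2. At an unadjusted p under 0.05, none was lower and 1 was higher, beside 1.02% of all genes higher.

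That gene was Herc6, the mouse ligase that joins ISG15 to proteins. It stood at 26.0, 24.0, 28.7 and 22.7 CPM in Wt F1, F2, M1 and M2 and 32.4, 30.55, 26.8 and 34.5 CPM in Ifnar1-/-, with overlap and a log2 fold change of 0.31 (95% interval 0.04 to 0.58). In microglia it stood at 75.5, 73.9, 61.6 and 63.8 CPM in Wt and 57.1, 58.5, 44.3 and 57.5 CPM in Ifnar1-/-, with no overlap (-0.35, -0.76 to 0.06). Adar in glutamatergic neurons stood at 118.2, 105, 118.1 and 106 CPM in Wt and 99.0, 109, 109.5 and 114 CPM in Ifnar1-/- (-0.04, -0.21 to 0.13). That interval leaves out a fall as large as its microglial estimate.

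Ly6e in glutamatergic neurons stood at 55.0, 48.6, 80.8 and 95.01 CPM in Wt and 55.4, 52.5, 94.0 and 64.45 CPM in Ifnar1-/-, higher in males of both genotypes. Tor3a stood at 13.1, 15.7, 15.7 and 12.4 CPM and 15.5, 12.1, 14.4 and 15.75 CPM. Trim30a stood at 10.25, 12.4, 6.72 and 7.36 CPM and 11.8, 13.1, 6.94 and 7.59 CPM, lower in males of both genotypes. Isg15 had 28, 44, 23 and 15 UMIs in Wt and 23, 28, 17 and 33 in Ifnar1-/- (0.03, -0.80 to 0.86). Ifit1 had 27, 47, 48 and 13 UMIs and 60, 29, 38 and 29. None of these 5 separated the genotypes.

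In GABAergic neurons 18 genes were tested, 3 were negative and the median was 0.13, and 0 passed the adjusted threshold (0.0271% of all genes) or an unadjusted p under 0.05 with edgeR's test. Adar stood at 138.5, 122.2, 122.3 and 120 CPM in Wt and 119, 141, 126 and 134 CPM in Ifnar1-/-. Ifit1 stood at 3.48, 4.94, 2.27 and 3.31 CPM and 4.07, 3.96, 4.11 and 3.39 CPM. Ly6e stood at 24.1, 26.7, 44.2 and 56.4 CPM and 26.75, 26.05, 59.9 and 37.8 CPM (log2 fold change 0.01), again higher in males. Tor3a had 62, 94, 85 and 58 UMIs and 66, 51, 104 and 81, Trim30a 86, 75, 51 and 46 and 53, 66, 71 and 50, and Rtp4 75, 61, 36 and 83 and 30, 55, 59 and 68. All of these overlapped between the genotypes.

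Oas1c and the sum of the IFIT genes were the exceptions in GABAergic neurons. The sum of the OAS genes overlapped, at 1.29 to 2.26 CPM in Wt and 1.89 to 3.23 CPM in Ifnar1-/-. Of 30 effector genes with at least 20 UMIs there, 0 had every Wt library above every Ifnar1-/- library (0.837% of all genes) and 1 the reverse (0.937%). That gene was Oas1c, with 5, 2, 5 and 4 UMIs in Wt and 8, 8, 14 and 12 in Ifnar1-/-, while in microglia it was among the 12 that were lower. It did not pass the filter of the test in GABAergic neurons. The IFIT genes summed to 10.8, 10.5, 9.22 and 7.97 CPM in Wt and 12.2, 12.3, 14.5 and 11.3 CPM in Ifnar1-/-. Every Ifnar1-/- library was above every Wt library, and the ratio per UMI was 1.31 (95% exact interval 1.11 to 1.55, counting error only). No other family's sum separated there, and how often sums of other gene sets do so was not tested.

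In oligodendrocytes 7 genes were tested, 4 were negative and the median was -0.08, and 0 passed the adjusted threshold (0.0572% of all genes) or an unadjusted p under 0.05 with edgeR's test. Adar had 44, 29, 90 and 54 UMIs in Wt and 67, 37, 62 and 97 in Ifnar1-/- (log2 fold change 0.35), Rtp4 59, 53, 55 and 47 and 48, 39, 21 and 55 (-0.40), Xaf1 39, 25, 45 and 49 and 23, 38, 22 and 66 (-0.08). Rnf213 had 32, 26, 47 and 21 UMIs and 38, 25, 17 and 35, and Ly6e 9, 10, 42 and 37 and 30, 6, 17 and 84. All 5 overlapped in CPM. Of 14 genes with at least 20 UMIs, 1 had every Wt library above every Ifnar1-/- library, beside 1.01% of all genes. It was Eif2ak2, with 4, 4, 9 and 6 UMIs in Wt and 0, 1, 1 and 6 in Ifnar1-/-.

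The smaller classes held few UMIs of single genes. In striatal projection neurons 4 genes were tested and 1 was negative. Of 13 genes with at least 20 UMIs in that class 1, Rtp4, had every Wt library above every Ifnar1-/- library (1.17% of all genes), with 6, 3, 6 and 3 UMIs in Wt and 2, 1, 2 and 2 in Ifnar1-/-. Adar had 120, 51, 202 and 46 UMIs in Wt and 124, 118, 77 and 104 in Ifnar1-/-, Ly6e 15, 12, 72 and 11 and 29, 18, 27 and 21, Tor3a 13, 23, 42 and 4 and 30, 14, 7 and 10, Trim30a 13, 11, 12 and 8 and 12, 21, 4 and 8, and Rnf213 9, 3, 20 and 3 and 21, 6, 4 and 7. In oligodendrocyte precursors Ly6e had 1, 6, 17 and 5 UMIs and 12, 5, 7 and 15, Adar 3, 4, 17 and 4 and 11, 11, 2 and 10, and Rnf213 4, 6, 6 and 3 and 11, 7, 3 and 8. Levels in CPM overlapped in all of these but Rtp4. In astrocytes Adar had 12 UMIs in Wt and 19 in Ifnar1-/-, Rnf213 12 and 16, Herc6 11 and 12, Rtp4 9 and 14, and Eif2ak2 8 and 14. In newly formed oligodendrocytes Adar had 18 and 20 and Rnf213 9 and 11. In astrocytes and oligodendrocyte precursors none passed the filter, and 83 and 98 UMIs, and 173 and 217, of all effector genes were counted in Wt and Ifnar1-/-. A loss of the microglial size could not be seen in single genes at that depth.

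**Figure D3:**
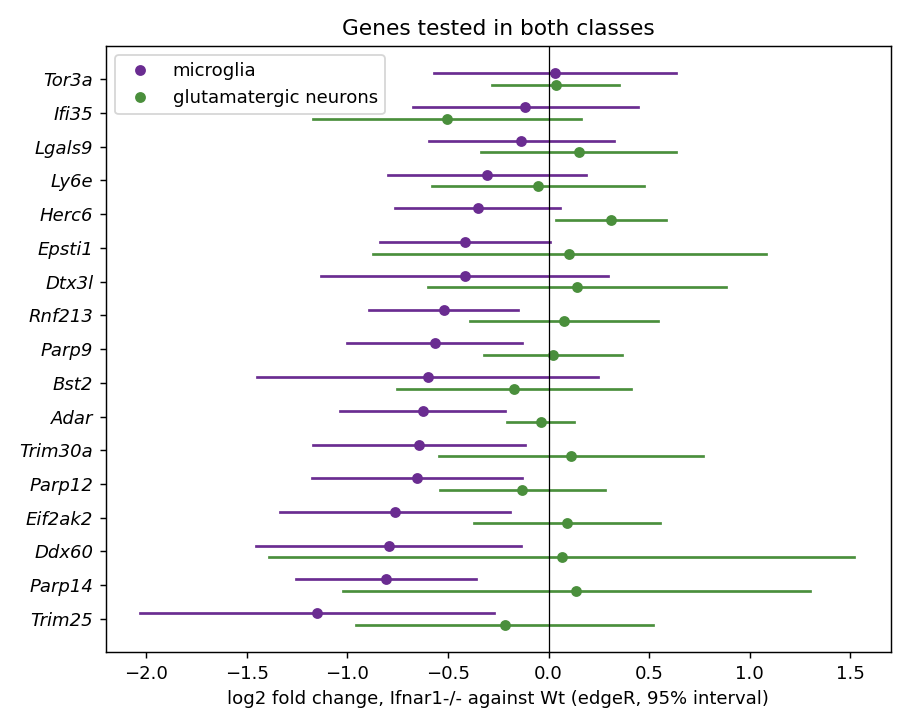
Log2 fold change of Ifnar1-/- against Wt with its 95% interval (edgeR) for the 17 effector genes tested in both microglia (purple) and glutamatergic neurons (green). The microglial estimate is the lower one for 16 of the 17, Ifi35 being the exception, and the intervals of single genes mostly overlap.

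Whether the genotype difference itself differed between classes was tested with a genotype by class term and the mouse as a block. The 3 comparisons share the microglial counts. Against glutamatergic neurons, 42 genes were tested, 35 had a more negative change in microglia and the median difference was -0.72 on the log2 scale, beside a median of 0.01 over all genes. At an unadjusted p under 0.05, 14 were lower (1.57% of all genes), and 0 passed the adjusted threshold (0.0338%). Against GABAergic neurons 28 of 31 were negative, the median was -0.78 and 11 were at an unadjusted p under 0.05 (1.73%), with 0 past the adjusted threshold (0.0341%). Against oligodendrocytes 19 of 23 were negative, the median was -0.68 and 4 were at an unadjusted p under 0.05 (1.84%), again with 0 past the adjusted threshold (0.00836%), and this count was 2 without Ifnar1-/- M2.

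Adar was among the genes at an unadjusted p under 0.05 in all 3, with differences of -0.57 (95% interval -0.99 to -0.15), -0.68 (-1.12 to -0.25) and -0.96 (-1.46 to -0.45). Xaf1 was as well, at -1.40 (-2.38 to -0.42), -1.72 (-2.96 to -0.47) and -1.37 (-2.21 to -0.53). Trim30a, Parp9, Eif2ak2, Rtp4 and Ifit2 were so against both neuronal classes. Herc6 was so against glutamatergic neurons, with -0.66 (-1.07 to -0.24).

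Over all nuclei summed, where neurons supply most of the RNA, 29 of 40 tested genes were negative, the median was -0.18 and 0 passed the adjusted threshold (0.0501% of all genes). In such sums fewer cells of a type and less RNA per cell cannot be told apart. At an unadjusted p under 0.05, 6 were lower (0.702% of all genes) with edgeR's test: Ifi204 (-1.65), Oasl2 (-1.34), Ifitm3 (-1.26), Slfn2 (-1.22), Mx1 (-1.05) and Trim25 (-0.72). Ifit3b was higher (0.63). Adar was at -0.02 (95% interval -0.18 to 0.14) and Rnf213 at 0.02 (-0.38 to 0.41) over all nuclei, although both separated the genotypes in microglia.

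Of 33 other genes of the interferon pathway, 23 were tested in microglia, 15 were negative and the median was -0.10. Irf9, which encodes the DNA-binding part of that complex, was the only one called. It stood at 61.3, 52.0, 38.0 and 50.5 CPM in Wt F1, F2, M1 and M2 and 17.1, 17.4, 14.8 and 11.8 CPM in Ifnar1-/-, with no overlap. Its log2 fold change was -1.79 (95% interval -2.36 to -1.21, adjusted p = 0.0298 with edgeR's test and the Benjamini-Hochberg method). It lost the call, with an adjusted p of 0.079 to 0.158, when Wt F1, F2 or M2 or Ifnar1-/- F1, M1 or M2 was left out.

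Its change differed from that in glutamatergic neurons by -1.68 (adjusted p = 0.0215) and from that in GABAergic neurons by -1.92 (adjusted p = 0.00483), both from edgeR's genotype by class term. Against oligodendrocytes the difference was -0.99 (adjusted p = 1.0), which did not pass. Within oligodendrocytes the log2 fold change of Irf9 was -0.68 (unadjusted p = 0.109 with edgeR's test). It was -0.01 in glutamatergic neurons and 0.10 in GABAergic neurons. The call against glutamatergic neurons was lost with limma (adjusted p = 0.9999) and without Ifnar1-/- F1 (0.0897) or M2 (0.138). The call against GABAergic neurons was lost without Ifnar1-/- F2 (0.0602) or M1 (0.12).

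At an unadjusted p under 0.05 with edgeR's test, the sensor Ddx58 (-0.90), the kinase gene Tyk2 (-0.42) and Ifnar1 itself (-0.81) were also lower in microglia, none past the adjusted threshold. Of all genes tested there, 0.983% were lower at that level. In the other classes the genes at that level were Ifnar2 in glutamatergic neurons (-0.27), Stat2 in oligodendrocytes (-0.41) and, in newly formed oligodendrocytes, Ptpn11 (-0.77) and Jak2 (0.83). Of all genes, 133 of 18192 were lower at that level in glutamatergic neurons and 118 of 10488 in oligodendrocytes. In newly formed oligodendrocytes 49 of 2235 were lower and 68 higher. Over all nuclei the pathway genes at that level were Usp18 (-0.84) and Irf7 (-0.91), beside 0.702% of all genes lower.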

How the data were processed

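The authors isolated cortical nuclei from each mouse, aligned the reads with Cell Ranger to mm10 with unspliced RNA included, and deposited raw UMI counts per gene and barcode; the submitters' processing notes also name Seurat 3.1.5. From these deposited counts, nuclei with 200 to 6000 genes, more than 1000 UMIs and under 10% mitochondrial UMIs were kept (54341 of 56780), and Scrublet removed 2262 doublets. Nuclei were clustered with Scanpy 1.11.5 and leidenalg 0.10.2 on 40 components of 3000 variable genes without the effector genes, at resolution 1.5, into 48 clusters. Clusters were named from marker lists, with thresholds set after seeing the clusters. 8193 nuclei stayed unnamed, as did 103 with microglial and neuronal markers (71 of them from Ifnar1-/- F1) and 155 with vascular markers.

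UMIs were summed per class and library, the mouse being the replicate. CPM is UMIs per 1000000 UMIs of that class and library. edgeR 4.0.16 (R 4.3.3) gave quasi-likelihood tests with TMM scaling, filterByExpr and genotype as the only term, in libraries with at least 10 nuclei, and 95% intervals were computed from the fold change and the test statistic. P-values were adjusted over all genes of a fit by the Benjamini-Hochberg method, and a call needed an adjusted p under 0.05. The scripts were tested on simulated data. Exact intervals and the floor of 3 UMIs cover counting error only. Replicate labels (F1, F2, M1, M2) carry sex. Microglia formed 2 clusters that split largely by sex label. The first held 613, 463, 11 and 31 nuclei of Wt F1, F2, M1 and M2 and 119, 422, 29 and 35 of Ifnar1-/-. The second held 49, 52, 467 and 734 and 37, 16, 578 and 730. What this split came from was not tested, so levels that differ between males and females cannot be read as effects of sex alone. Same-labelled libraries deviated together in microglia (correlations 0.171 to 0.54) and in glutamatergic neurons (0.432 to 0.642), so a fit with the label as a block was an alternative. The best match of a library was often the other label of its sex, and pairing beyond sex is not established. Other alternatives were DESeq2 1.42.0, no filter, sex as a covariate, each library left out, doublets kept, effector genes kept for clustering, other microglial sets and limma 3.58.1 for the differences between classes. Values are given for members called or at an unadjusted p under 0.05, the 5 with most UMIs in each class (fewer, or genotype totals, in the smallest classes), and Isg15. Slfn5, Oas1a and Cxcl10, the genes named for not overlapping and those given for their small shifts were named after their values were seen. The members and lists were chosen with earlier results of these data known.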

Additional observations from a re-analysis of the deposited data

Results flagged for a closer look

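The change of Irf9 in microglia differed from that in glutamatergic neurons by -1.68 and from that in GABAergic neurons by -1.92 on the log2 scale, past the adjusted threshold in a test of the difference itself. Against oligodendrocytes it differed by -0.99, with an adjusted p of 1.0. The first call was lost with limma and without Ifnar1-/- F1 or M2, and the second without Ifnar1-/- F2 or M1, at differences of -1.99 to -1.57. In 5 of 90 groups of 4 libraries 1 library stood apart from the others by Dixon's criterion, where chance gives about 1 in 20. These were Adar in Wt GABAergic neurons (highest library 138.5 CPM), Herc6 in Wt over all nuclei (lowest 17.3 CPM), Ifi204 in Wt over all nuclei (highest 0.375 CPM), and Epsti1 (highest 134 CPM) and Parp9 (highest 59.7 CPM) in Ifnar1-/- microglia.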

How the results depend on the processing

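The number of effector genes called stayed at 0 in microglia, glutamatergic and GABAergic neurons, oligodendrocytes, striatal projection neurons and all nuclei under every alternative run, except for 1 in microglia without the filter and 1 (Oas1c) against GABAergic neurons with limma. With the replicate block it was 0 in each class, and 11 genes were lower in microglia at an unadjusted p under 0.05 in place of 9, beside 1.85% of all genes in place of 0.983%. That count was 26 without the filter, which tested more genes, and 4 to 13 with 1 library left out. Against oligodendrocytes leaving out 1 library gave 2 to 6 genes. The pathway gene called in microglia was lost (0 called) within females, within males and with the mixed microglial and neuronal cluster added, at log2 fold changes of -1.69, -1.82 and -1.74 where it had been -1.79, and leaving out 1 library gave 0 to 1. The fits within a sex hold fewer libraries, and otherwise the cause was not tested. The summed level in striatal projection neurons differed by -20.3 CPM without Ly6e and Adar, where it had differed by -0.662. In microglia the summed difference, -556 CPM, was -648.5 to -491 with 1 library left out. Few UMIs limit what can be said of IFIT, OAS and PYHIN genes in single libraries.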
